A study of Homo sapiens with 6 samples.

Results

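The SLC25 genes encode the mitochondrial carriers, a family of small transport proteins of the inner mitochondrial membrane. The members examined here are all genes of the deposited expression table whose symbol is SLC25A followed by a number, 37 of the 11456 genes listed. GENCODE 29 gives 48 protein-coding symbols of this form, so the remaining 11 (SLC25A2, SLC25A18, SLC25A21, SLC25A27, SLC25A31, SLC25A34, SLC25A41, SLC25A45, SLC25A48, SLC25A52 and SLC25A53) were not analysed here. No measured value entered the choice of members.

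The RNA came from HepG2-hCAR cells, a clone of HepG2, an established line from a human liver carcinoma, that descends from 1 cell infected with a lentivirus. The virus carries NR1I3 cDNA, which encodes the human constitutive androstane receptor (CAR), under control of doxycycline. CAR is a nuclear receptor of hepatocytes that switches on genes of drug metabolism. One group of 3 libraries came from cells treated with doxycycline, a tetracycline antibiotic, at 1 µg/ml for 72 h, and the other group of 3 from cells of the same clone treated with vehicle for 72 h. Both groups carry the inducible cDNA, and the clone was selected for strong induction. Cells that lack the cDNA were not among the samples, so what the antibiotic does and what the receptor does cannot be told apart. Nothing in the labels states that replicate libraries were separate cultures, so the spread behind each p-value may be technical.

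Mitochondria make ATP in the matrix, behind an inner membrane that small charged molecules do not cross unaided. Most SLC25 proteins exchange 1 solute against another across it: ADP against ATP, malate against oxoglutarate, aspartate against glutamate, ornithine against citrulline. In hepatocytes they link the urea cycle, fatty acid oxidation, gluconeogenesis and lipid synthesis, each of which has steps on both sides of the membrane. The unit is FPKM, the number of sequenced fragments relative to the length of the transcript and to the size of the library, so that levels can be compared between genes. It gives a share of a library and no depth, so no counting interval is available.

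Of the 37 carriers, 35 had a mean of at least 1 FPKM over the 6 libraries and entered the test, limma on log2(FPKM + 1) over all 10469 genes that passed the same limit. A gene was called at a Benjamini-Hochberg adjusted p below 0.05. With doxycycline 5 carriers rose and 4 fell, and 26 were not called. The called share of the carriers was 25.7%, against 28.8% of all genes tested, and is therefore close to the background. The members higher with doxycycline made up 14.3% against 15.2% of all genes, and those lower 11.4% against 13.6%. The median log2 fold change of the 35 carriers was 0.02, against 0.01 over all genes tested. None of the 35 reached an absolute log2 fold change of 1, a size that 2.24% of all genes reached, and 7 (20.0%) reached 0.3, against 21.4% of all genes. Values of the groups did not overlap in 17 of the 35 carriers (48.6%), against 47.1% of all genes tested. At an unadjusted limma p below 0.05, 5 carriers were higher and 9 lower, against 2239 higher and 2036 lower of the 10469 genes.

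The 5 that rose were SLC25A51 (NAD), SLC25A15 (ornithine), SLC25A32 (folate and FAD), SLC25A36 (pyrimidine nucleotides) and SLC25A38 (glycine). The 4 that fell were SLC25A33 (pyrimidine nucleotides), SLC25A1 (citrate), SLC25A5 (ADP and ATP) and SLC25A6 (ADP and ATP). The largest fold of the family belonged to a gene below the limit of the test, SLC25A47, an orphan carrier known for its expression in liver, which was 8.31-fold lower with doxycycline. Its place in the deposited table rests on its vehicle libraries, so this fold is a description with no test.

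**Figure D1:**
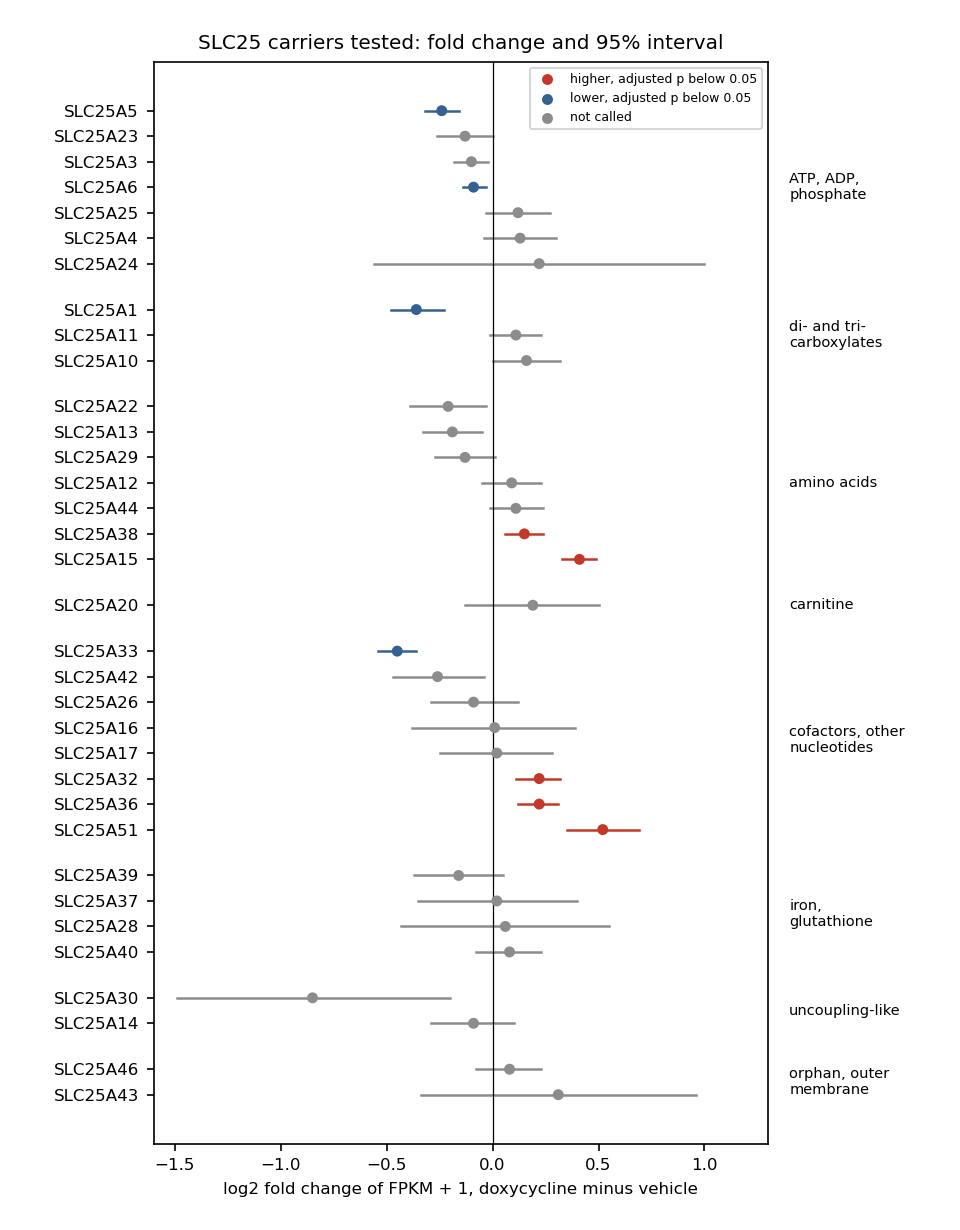
Log2 fold change of FPKM + 1 (doxycycline minus vehicle) for 34 of the 35 carriers tested, grouped by substrate, with 95% intervals from limma over 3 libraries per group. The 5 called higher are red, the 4 called lower are blue, and the 25 shown that were not called are grey; SLC25A51 has the highest value, 0.52, and SLC25A30 the lowest, -0.85, which was not called.

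The labels could be checked at the induced gene. NR1I3 was at 331, 317 and 316 FPKM in the doxycycline libraries, against 3.15, 3.01 and 3.56 FPKM in the vehicle libraries. The cell identity was checked at 8 hepatocyte markers, all in the table. Their summed level was 966 to 998 FPKM with doxycycline and 1794 to 1977 FPKM with vehicle. By limma 6 of the 8 were called lower (75.0%, against 13.6% of all genes tested). Among them were APOA1 (85.6 ± 3.41 against 294 ± 17.2 FPKM, mean ± SD, n = 3, as for all such values) and TF (60.5 ± 4.41 against 149 ± 1.42 FPKM). ALB, albumin, is also among the 6 and was low in both groups (0.373 ± 0.0951 against 1.87 ± 0.0837 FPKM). It passed the limit of the test through its vehicle libraries only, so no result is read from its call. The count of 6 and the share of 75.0% include ALB and are descriptions only. Apart from ALB, limma called APOA1, APOA2, APOB, TTR and TF lower, and did not call SERPINA1 and HNF4A. Of 8 markers of immune, endothelial and mesenchymal cells, 2 were in the table. CD68 was lower at 5.08 ± 0.618 against 8.500 ± 0.211 FPKM, and PDGFRB was higher at 1.43 ± 0.0327 against 0.856 ± 0.0957 FPKM. PDGFRB passed the limit of the test through its doxycycline libraries only, so no result is read from its difference. The sum of both was 5.77 to 6.91 FPKM with doxycycline and 9.18 to 9.71 FPKM with vehicle. The markers thus differ between the same groups as the carriers below, and their part in those differences was not tested. In these bulk samples, fewer cells of a kind and less RNA per cell cannot be told apart.

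The proximal promoters of 3 members are shown because the results turn on them: SLC25A36 and SLC25A33, which carry the same class of substrate and moved in opposite directions, and SLC25A47, which had the largest fold. Each is the 250 bases before the gene's start on the plus strand, from RefSeq on GRCh38.p14, at chr3:140941586-140941835, chr1:9539215-9539464 and chr14:100323089-100323338. Capitals mark TGACCT, the reverse complement of the nuclear receptor half-site AGGTCA, and TGACGTCA, the palindromic cyclic AMP response element.
SLC25A36: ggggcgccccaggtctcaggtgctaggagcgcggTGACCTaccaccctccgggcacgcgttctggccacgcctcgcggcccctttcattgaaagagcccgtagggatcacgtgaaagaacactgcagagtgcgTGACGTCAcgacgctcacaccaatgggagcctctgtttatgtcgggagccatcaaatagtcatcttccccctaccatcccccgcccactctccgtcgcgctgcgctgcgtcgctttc
SLC25A33: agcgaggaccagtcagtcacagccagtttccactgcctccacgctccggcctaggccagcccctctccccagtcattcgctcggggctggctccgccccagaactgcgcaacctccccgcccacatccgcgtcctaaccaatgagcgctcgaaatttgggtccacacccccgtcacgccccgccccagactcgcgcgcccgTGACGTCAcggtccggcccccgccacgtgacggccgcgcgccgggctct
SLC25A47: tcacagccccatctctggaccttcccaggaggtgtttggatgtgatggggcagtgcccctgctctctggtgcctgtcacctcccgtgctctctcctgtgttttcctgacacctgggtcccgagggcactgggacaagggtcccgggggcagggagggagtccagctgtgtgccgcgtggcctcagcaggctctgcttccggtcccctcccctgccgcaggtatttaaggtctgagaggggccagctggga
Promoters of 31 of the 37 members and of 8263 of the genes tested were matched by symbol. Searched on both strands, the half-site AGGTCA was in 1 of the 31 (3.23%), at SLC25A36 from base -216 counted back from the start, against 8.30% of the 8263. A direct repeat of this half-site or its close variants spaced by 4 bases (DR4), an arrangement CAR is known to bind, was in 0 of the 31 and in 3 of the 8263 promoters. TGACGTCA, looked for after it had been seen in these sequences, was in 3 of the 31 (9.68%), in SLC25A36 from base -117, SLC25A33 from base -49 and SLC25A25 from base -200, against 3.13% of the 8263. The motifs do not overlap in these windows. The letters G and C made up a median of 70.4% of the members' windows, against 65.2% over the genes tested. A match of letters describes the window and is not evidence of binding.

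Adenine nucleotide and phosphate carriers supply the ATP synthase with its substrates and deliver its product to the cytosol. All 7 in the table were tested, and 2 fell and 0 rose by limma. At an unadjusted p below 0.05, 3 were lower and 0 higher, against 2036 lower and 2239 higher of all 10469 genes tested. The called share was 28.6%, against 28.8% of all genes tested, and is thus close to the background. By direction, 28.6% were called lower, against 13.6% of all genes, and 0.0% higher, against 15.2%. Whether the directions differ from the background was not tested. SLC25A5 (ANT2, chromosome X, 118602363 to 118605282 on GRCh37, as for all gene positions) was at 181, 177 and 177 FPKM with doxycycline, against 219.8, 206 and 205 FPKM with vehicle. All doxycycline libraries lay below all vehicle libraries, and the log2 fold change was -0.24 (SE 0.03, limma adjusted p = 0.0034). It was called in 16 of 16 alternative fits, each read, as for all such counts, at the threshold of 0.05. The size depended on the scaling, with a log2 fold change of -0.14 after quantile normalization (limma adjusted p = 0.00259). SLC25A6 (ANT3, chromosome X, 1505045 to 1511617, in the pseudoautosomal region) was at 188, 187 and 190.2 FPKM, against 204, 197 and 199 FPKM. Again the groups did not overlap, but the difference was small (log2 fold change -0.09, SE 0.02, limma adjusted p = 0.0373), the call was lost without any 1 of the 6 libraries (adjusted p 0.053 to 0.101), and with quantile normalization the sign turned (log2 fold change 0.02, adjusted p = 0.443). SLC25A4 (ANT1), the form typical of heart and muscle, was at 7.97 ± 0.481 FPKM with doxycycline and 7.204 ± 0.554 FPKM with vehicle, with overlapping groups and no call. GENCODE 29 lists 9 pseudogenes of SLC25A5 and 6 of SLC25A6, and how the authors' counting treated reads shared with such copies is not given in the sources used here.

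SLC25A5 and SLC25A6 stood far above every other carrier, each with a mean of 194 FPKM over the 6 libraries. The carrier with the next level, SLC25A3, had 31.2 FPKM, 10 members lay at 11.4 to 31.2 FPKM and 23 at 1.05 to 9.03 FPKM. SLC25A4, SLC25A5 and SLC25A6 together held 55.5 ± 0.641% of the summed FPKM of all 37 carriers with doxycycline and 57.3 ± 1.21% with vehicle. The sum itself was 669, 677 and 679 FPKM in the doxycycline libraries, against 735, 720.4 and 732 FPKM in the vehicle libraries. Most of that gap lay in these 3 genes together, whose sum was 374 ± 2.096 against 418 ± 11.9 FPKM. Within them SLC25A5 and SLC25A6 were lower with doxycycline, while the mean of SLC25A4 was higher. The other 34 carriers summed to 300.2 ± 6.52 against 311 ± 7.63 FPKM. These sums are descriptions with no test.

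SLC25A3 (chromosome 12, 98987369 to 99000157), which imports the phosphate for ATP synthesis and also carries copper, was at 29.3, 31.01 and 29.97 FPKM with doxycycline, against 32.8, 31.6 and 32.4 FPKM with vehicle. The groups did not overlap, yet the difference was not called (log2 fold change -0.10, SE 0.03, limma adjusted p = 0.0729, 0.0562 to 0.18 over the alternatives). The calcium-regulated ATP-Mg/phosphate carriers, which adjust the adenine nucleotide content of the matrix, gave no call. SLC25A23 was at 4.08 ± 0.225 against 4.54 ± 0.1601 FPKM and SLC25A25 at 3.64 ± 0.161 against 3.27 ± 0.259 FPKM. SLC25A24 varied within both groups, at 6.81, 6.97 and 4.28 FPKM with doxycycline and 2.69, 6.31 and 6.68 FPKM with vehicle.

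**Figure D2:**
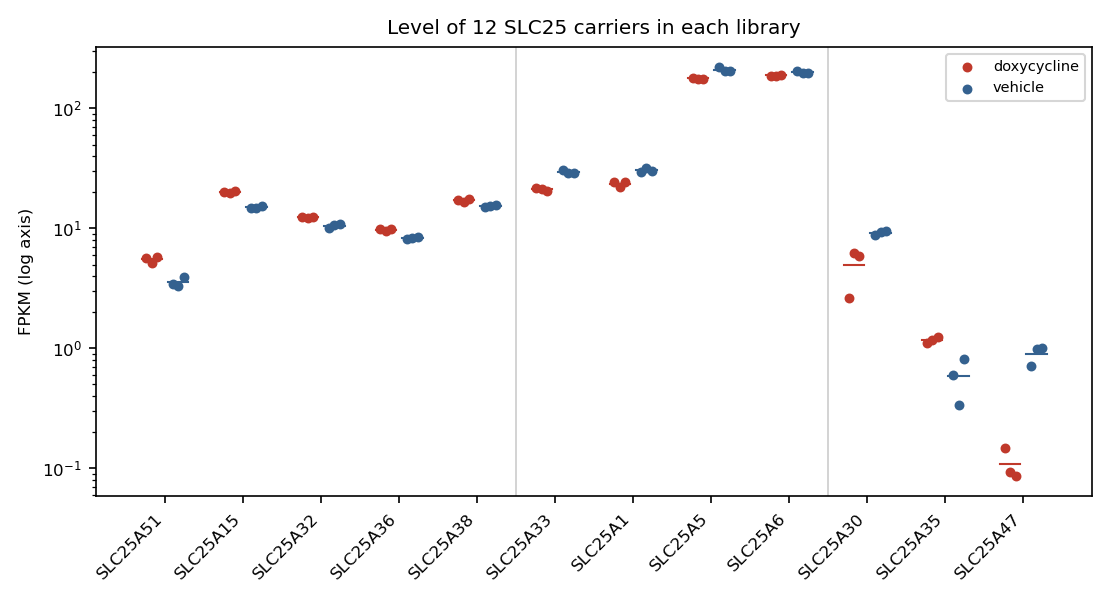
FPKM on a log axis in each library (points; doxycycline red, vehicle blue; bar, group mean of 3) for the 5 carriers called higher (left), the 4 called lower (middle) and SLC25A30, SLC25A35 and SLC25A47 (right), which were not called or not tested. SLC25A5 and SLC25A6 sit at 177 to 219.8 FPKM, and in SLC25A47 the doxycycline points lie at 0.0866 to 0.147 FPKM, below all vehicle points.

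Among the carriers of citrate, malate and keto acids, 1 of 3 tested fell (33.3% called, against 28.8% of all genes tested). SLC25A1 (chromosome 22, 19163088 to 19166343) exports citrate, the source of cytosolic acetyl-CoA for fatty acid and sterol synthesis. It was at 24.2, 21.99 and 24.5 FPKM with doxycycline, against 29.3, 31.8 and 30.1 FPKM with vehicle. The groups were clearly apart (log2 fold change -0.36, SE 0.05, limma adjusted p = 0.00444), and the call was kept in 16 of 16 alternatives. SLC25A10, which exchanges malate or succinate for phosphate, was at 21.6 ± 1.42 against 19.3 ± 1.25 FPKM. SLC25A11, which exchanges malate for oxoglutarate in the malate-aspartate shuttle, was at 14.8 ± 0.911 against 13.6 ± 0.0703 FPKM. Neither was called, and SLC25A11 overlaps RNF167 on the other strand.

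Of the 7 amino acid carriers tested, 2 rose and 0 fell by limma. With an unadjusted p below 0.05, 2 were higher and 2 lower, against 2239 higher and 2036 lower of all 10469 genes tested. The called share of 28.6% is close to the 28.8% of all genes tested. By direction, 28.6% were called higher, against 15.2% of all genes, and 0.0% lower, against 13.6%, a difference that was not tested. SLC25A15 (ORNT1, chromosome 13, 41363548 to 41384247) brings ornithine into the matrix for the urea cycle. It was at 20.2, 19.9 and 20.5 FPKM with doxycycline, against 14.9, 14.8 and 15.3 FPKM with vehicle. The spread within groups was a small part of the gap, the fold was 1.35 and the log2 fold change 0.41 (SE 0.03, limma adjusted p = 3.37e-04), with the call kept in 16 of 16 alternatives. GENCODE 29 lists 5 pseudogenes of SLC25A15. SLC25A38, a glycine carrier of heme synthesis, was at 17.2, 16.7 and 17.6 FPKM, against 15.01, 15.5 and 15.7 FPKM. The groups did not overlap (log2 fold change 0.15, limma adjusted p = 0.0285), but the call ended in 6 of 16 alternatives, those with the replicate number as a block (0.0646) and without any 1 library other than doxycycline replicate 2 (0.0553 to 0.0834).

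Citrin, SLC25A13, is the aspartate-glutamate carrier of liver, and aralar, SLC25A12, is its counterpart in muscle and brain. SLC25A13 was at 24.6, 24.8 and 24.7 FPKM with doxycycline, against 26.8, 27.5 and 31.1 FPKM with vehicle. The groups did not overlap, with vehicle replicate 3 the highest, and the difference lay just outside the threshold (log2 fold change -0.19, limma adjusted p = 0.0527), and was called without vehicle replicate 1 (0.0442), at a minimum mean of 5 FPKM (0.0473), with median-ratio scaling (0.0434) and with quantile normalization (0.0432), over a range of 0.0432 to 0.123. SLC25A12 was at 4.76 ± 0.262 against 4.41 ± 0.2097 FPKM, without a call. SLC25A22, which imports glutamate, was at 2.88 ± 0.189 against 3.49 ± 0.329 FPKM, SLC25A44, a branched-chain amino acid carrier, at 3.72 ± 0.196 against 3.36 ± 0.0774 FPKM and SLC25A29, a carrier of basic amino acids, at 0.958 ± 0.0819 against 1.14 ± 0.0774 FPKM, and none of the 3 was called.

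Carriers of cofactors and of nucleotides other than ADP and ATP held 4 of the 9 calls, 3 higher and 1 lower among 9 tested, against 28.8% of all genes called, 15.2% higher and 13.6% lower. Whether the calls are more frequent in this group was not tested. SLC25A51 (chromosome 9, 37879397 to 37904350), which brings NAD into the matrix, was at 5.66, 5.13 and 5.79 FPKM with doxycycline, against 3.47, 3.299 and 3.91 FPKM with vehicle. It had the largest ratio among the called carriers, 1.55-fold, with a log2 fold change of 0.52 (SE 0.07, limma adjusted p = 0.00316). It was called in each of the 15 alternatives that kept it, and with a mean of 4.54 FPKM it dropped out at a minimum mean of 5. GENCODE 29 lists 3 pseudogenes of SLC25A51.

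The pyrimidine nucleotide carriers, which supply the matrix for the synthesis of mitochondrial RNA and DNA, moved in opposite directions. SLC25A33 (chromosome 1, 9599541 to 9645237) was at 21.8, 21.4 and 20.5 FPKM with doxycycline, against 30.4, 28.8 and 29.1 FPKM with vehicle. It fell by 0.45 on the log2 scale (SE 0.04, limma adjusted p = 4.06e-04), and this call was kept in 16 of 16 alternatives. SLC25A36 (chromosome 3, 140660672 to 140698775) was at 9.94, 9.48 and 9.94 FPKM, against 8.11, 8.27 and 8.45 FPKM. It rose by 0.22 on the log2 scale (SE 0.04, limma adjusted p = 0.00931), also in 16 of 16 alternatives.

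SLC25A32, which carries folate and FAD, was at 12.5, 12.1 and 12.4 FPKM with doxycycline, against 9.99, 10.6 and 10.9 FPKM with vehicle. The groups did not overlap and the rise was called in 16 of 16 alternatives at the threshold of 0.05 (log2 fold change 0.22, limma adjusted p = 0.0129), but it does not pass a threshold of 0.01. It overlaps DCAF13 on the other strand, and whether the authors' counting used strand is not given in the sources used here. The other 5 carriers of cofactors tested were not called. SLC25A42, a coenzyme A carrier, was at 2.61 ± 0.231 against 3.32 ± 0.409 FPKM without overlap, with an adjusted p of 0.076 by limma, and 0.0477 without vehicle replicate 1. SLC25A26, the S-adenosylmethionine carrier, was at 2.67 ± 0.372 against 2.88 ± 0.128 FPKM, with overlapping groups. SLC25A16, linked to coenzyme A through its yeast counterpart, was at 3.27 ± 0.5599 against 3.27 ± 0.759 FPKM, and SLC25A17, a cofactor carrier of peroxisomes, at 6.03 ± 1.07 against 5.89 ± 0.197 FPKM.

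SLC25A20, the carnitine-acylcarnitine carrier that brings long-chain fatty acids to beta-oxidation, was at 2.97, 3.37 and 3.19 FPKM with doxycycline, against 2.41, 3.48 and 2.22 FPKM with vehicle. Vehicle replicate 2 lay above all doxycycline libraries and the gene was not called (limma adjusted p = 0.337), whereas without that library the log2 fold change was 0.33 (adjusted p = 0.0281, range over the alternatives 0.0281 to 0.649).

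Of the 4 iron and glutathione carriers limma called 0 (against 28.8% of all genes tested), and 0 had an unadjusted p below 0.05. Over all 10469 genes tested, 2239 were higher and 2036 lower at that unadjusted p. The mitoferrins import iron for heme and iron-sulfur clusters. SLC25A28 (mitoferrin 2) ranged over 5.05, 8.03 and 8.87 FPKM with doxycycline and 7.63, 5.69 and 7.26 FPKM with vehicle, so that the spread within the groups exceeded the difference of their means. SLC25A37 (mitoferrin 1), at 2.07 ± 0.543 against 1.996 ± 0.337 FPKM, overlaps the listed gene FP15737 on the same strand. SLC25A39, a glutathione carrier, was at 16.7 ± 1.84 against 18.7 ± 1.23 FPKM and passed the threshold only without doxycycline replicate 2 (adjusted p = 0.0498). SLC25A40, its paralog, was at 6.45 ± 0.437 against 6.06 ± 0.352 FPKM.

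Of the uncoupling-like carriers, SLC25A30, known from kidney mitochondria, was at 2.64, 6.24 and 5.898 FPKM with doxycycline, against 8.75, 9.33 and 9.49 FPKM with vehicle. The groups did not overlap, but doxycycline replicate 1 lay far below the other two, and the log2 fold change of -0.85 had an SE of 0.26 (limma adjusted p = 0.0582). Without that library the log2 fold change was -0.53 and the adjusted p 0.00388, while the other alternatives gave no call (up to 0.136). SLC25A14 (UCP5) was at 2.83 ± 0.336 against 3.09 ± 0.204 FPKM, without a call. Limma thus called 0 of these 2, against 28.8% of all genes tested. At an unadjusted p below 0.05, 1 was lower, against 2239 higher and 2036 lower of all 10469 genes tested.

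Among carriers without a settled substrate and outer membrane members limma called 0 of 2 tested (against 28.8% of all genes). At an unadjusted p below 0.05 there were 0 as well, against 2239 higher and 2036 lower of all 10469 genes tested. SLC25A46, an outer membrane protein linked to mitochondrial fission, was at 4.26 ± 0.358 against 3.98 ± 0.102 FPKM. SLC25A43 was even across the doxycycline libraries at 3.83, 4.27 and 4.33 FPKM and uneven across the vehicle libraries at 1.98, 2.78 and 5.32 FPKM. Its log2 fold change of 0.31 was not called (limma adjusted p = 0.432), and was 0.61 without vehicle replicate 3 (0.0223).

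SLC25A47 and SLC25A35 were below the limit of the test. SLC25A47 (chromosome 14, 100789674 to 100796715) was at 0.147, 0.0924 and 0.0866 FPKM with doxycycline, against 0.713, 0.9904 and 1.01 FPKM with vehicle. The doxycycline libraries were all far below the vehicle libraries. SLC25A35 (chromosome 17, 8191081 to 8198661), an orphan, was at 1.104, 1.18 and 1.25 FPKM, against 0.596, 0.339 and 0.821 FPKM. It was 2.01-fold higher without overlap (log2 fold change 0.47, SE 0.11, limma adjusted p = 0.0277 in a fit without the limit, over 11456 genes), and it overlaps RANGRF on the other strand. The smallest value of the larger group mean in the deposited table was 0.5 FPKM, a level that SLC25A47 exceeded through its vehicle libraries only and SLC25A35 exceeded in both group means. A gene kept through 1 group only had to differ between the groups, and no p-value is given for SLC25A47.

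**Figure D3:**
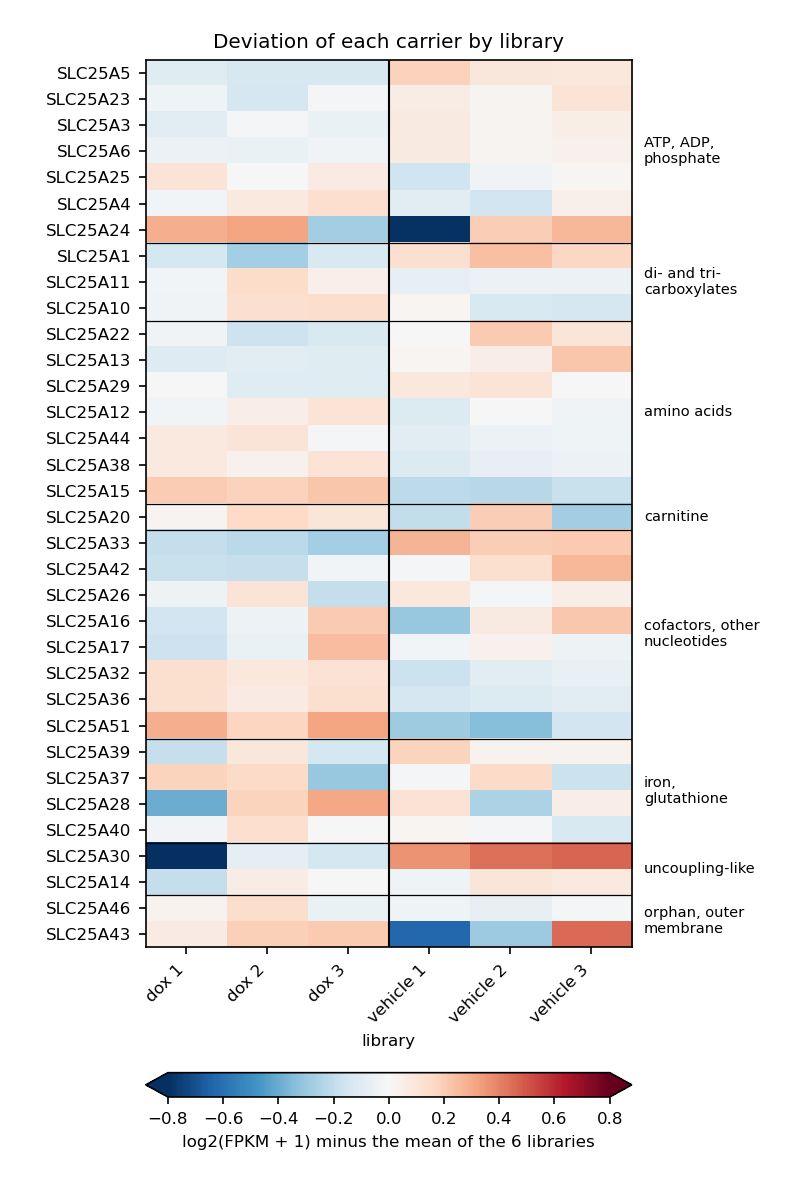
Deviation of log2(FPKM + 1) from the mean of the 6 libraries for the same 34 carriers (rows, by substrate), with the doxycycline libraries left of the vehicle libraries; red is above and blue below the mean, and the colours saturate at 0.8. SLC25A15 and SLC25A33 are even within groups, while single libraries stand out in SLC25A24 (vehicle replicate 1, and less so doxycycline replicate 3), SLC25A30 (doxycycline replicate 1) and SLC25A43.

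Carriers that share a substrate or a pathway were also compared within libraries, as ratios of FPKM, which a common scaling of a library leaves as they are. The pairs were chosen with the values known. The ratio of SLC25A36 to SLC25A33 was 0.457, 0.442 and 0.484 with doxycycline, against 0.266, 0.287 and 0.291 with vehicle. It thus differed by 0.71 on the log2 scale, the largest of the 8 pairs. SLC25A10 to SLC25A1 was 0.922 ± 0.0951 against 0.636 ± 0.0626, and SLC25A11 to SLC25A1 was 0.6300 ± 0.0758 against 0.449 ± 0.0168. SLC25A12 to SLC25A13, aralar to citrin, was 0.193 ± 0.0102 against 0.155 ± 0.0115. SLC25A4 to SLC25A5 was 0.0448 ± 0.00322 against 0.0343 ± 0.00327, and SLC25A5 to SLC25A6 was 0.944 ± 0.0167 against 1.05 ± 0.0236, so that ANT2 was the less abundant of these in all doxycycline libraries and the more abundant in all vehicle libraries. SLC25A40 to SLC25A39 was 0.388 ± 0.0157 against 0.324 ± 0.0164. In these 7 pairs the groups did not overlap, and each had an exact two-sided permutation p of 0.1, the smallest that 3 against 3 libraries can give (0.114 adjusted over the 8 pairs). Several pairs hold a carrier already called, and all were picked with the values in view. These p-values therefore cannot serve as tests, and the ratios are descriptions. How often other pairs of genes are apart was not examined. The mitoferrin ratio, SLC25A28 to SLC25A37, overlapped (3.89 ± 2.07 against 3.55 ± 1.000, exact permutation p = 1).

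**Figure D4:**
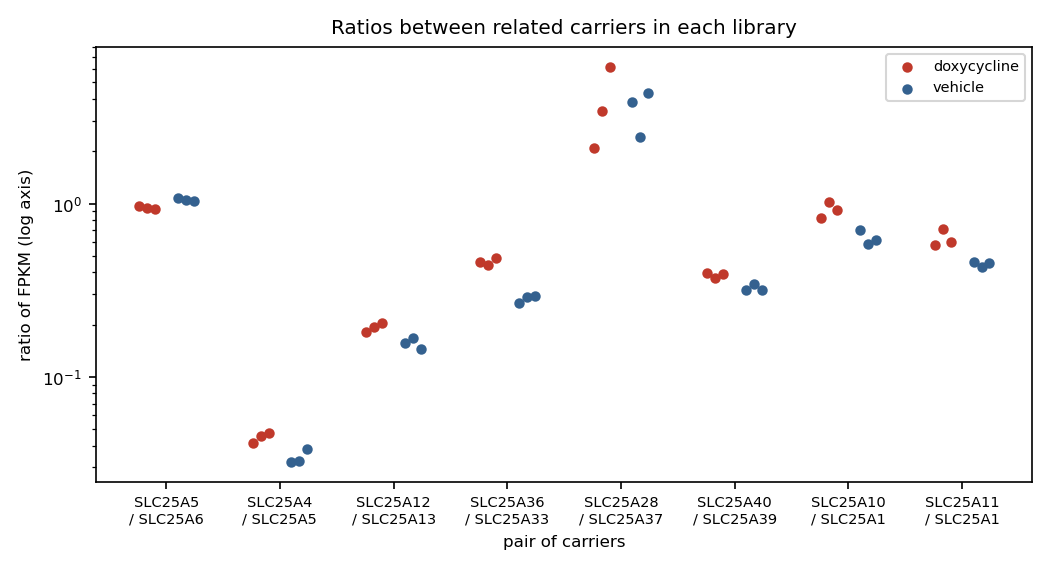
Ratio of FPKM between related carriers in each library (log axis; doxycycline red, vehicle blue, 3 points per group). The groups are apart in 7 of the 8 pairs, which were chosen with the values known. They are most apart for SLC25A36 over SLC25A33 (a log2 difference of 0.71), and overlap for SLC25A28 over SLC25A37.

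Members of the family lie next to each other at 2 places. SLC25A5 and SLC25A43 are separated by 13921 bases on chromosome X, and SLC25A29 and SLC25A47 by 16789 bases on chromosome 14. On chromosome X SLC25A5 fell and SLC25A43 was not called. On chromosome 14 SLC25A47 was not tested, so a shared call was not possible there. The means of SLC25A47 and of SLC25A29 were both lower with doxycycline. SLC25A29 was at 0.958 ± 0.0819 against 1.14 ± 0.0774 FPKM, with overlapping groups and no call. Whether neighbours move together was not tested.

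Relatives that bear other symbols were looked up as well. Of 8 such symbols 3 were in the table, and limma called 1 of the 3 (33.3%, against 28.8% of all genes tested). UCP2, an uncoupling protein, rose (5.99 ± 0.383 against 4.89 ± 0.269 FPKM, log2 fold change 0.25, limma adjusted p = 0.029). Its call ended without any 1 library other than doxycycline replicate 2 (0.0572 to 0.0826). The insertase genes MTCH1 (26.3 ± 0.669 against 25.01 ± 0.5600 FPKM) and MTCH2 (40.7 ± 0.892 against 43.8 ± 1.94 FPKM) were not called.

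Carrier proteins reach the inner membrane through the receptor TOMM70, the small TIM chaperones and the TIM22 complex. Of 16 genes of this route tested, 3 rose and 2 fell (31.2%, against 28.8% of all genes). TIMM22, the channel of the complex, was at 7.48 ± 0.126 against 6.04 ± 0.378 FPKM (log2 fold change 0.27, limma adjusted p = 0.0116). Its partner TIMM29 was at 7.19 ± 0.679 against 5.86 ± 0.278 FPKM (0.25, limma adjusted p = 0.043). The TIMM29 call was kept in 8 of 16 alternatives. Among others, it ended without any 1 of the 6 libraries (0.0536 to 0.118) and with the replicate number as a block (0.101). TOMM70 moved the other way, at 24.96 ± 0.469 against 28.8 ± 0.194 FPKM (log2 fold change -0.20, limma adjusted p = 0.00389).

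Transporters of the inner membrane outside the family showed 4 decreases and 0 increases by limma among 16 tested. The called share was 25.0%, against 28.8% of all genes tested, of whom 15.2% were called higher and 13.6% lower. With an unadjusted p below 0.05, 6 were lower and 1 higher, against 2036 lower and 2239 higher of all 10469 genes tested. MPC2, a subunit of the pyruvate carrier, was at 14.2 ± 0.646 against 23.1 ± 0.975 FPKM (log2 fold change -0.67, limma adjusted p = 2.58e-04), a larger difference than in any called SLC25 carrier. Its partner MPC1, named after its values were seen, was at 15.4 ± 2.68 against 19.97 ± 1.51 FPKM and was not called. ABCB10, an ABC transporter linked to heme synthesis, fell to 8.12 ± 0.0744 against 10.5 ± 0.698 FPKM, and SFXN3, a sideroflexin, to 15.00 ± 0.472 against 18.8 ± 0.897 FPKM. Of the 3 outer membrane pores VDAC2 rose (57.3 ± 0.504 against 51.6 ± 0.587 FPKM), a called share of 33.3% against 28.8% of all genes.

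Among 16 enzymes that make or use the carried molecules, 1 rose and 3 fell (25.0% called, against 28.8% of all genes, 15.2% higher and 13.6% lower). GOT1, the cytosolic aminotransferase of the malate-aspartate shuttle, was at 101 ± 4.24 against 82.8 ± 2.96 FPKM (log2 fold change 0.28, limma adjusted p = 0.00441). IDH2, the NADP-dependent isocitrate dehydrogenase of the matrix, was at 28.7 ± 1.49 against 38.8 ± 1.56 FPKM (log2 fold change -0.42, limma adjusted p = 0.00172). CRAT, which forms acetylcarnitine, was at 7.94 ± 0.354 against 9.29 ± 0.492 FPKM (log2 fold change -0.20, limma adjusted p = 0.0357). Its call ended without any 1 library other than vehicle replicate 1 (0.0634 to 0.0959) and with the replicate number as a block (0.0617).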

How the data were processed

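RNA was poly(A)-selected and made into strand-specific libraries, per the labels' protocols. The values are FPKM computed and deposited by the authors, 1 column per library. FastQC, cutadapt, HISAT2, StringTie and the build GRCh37 are named, without versions, per the submitters' processing notes. All 11461 entries are protein-coding. For 5 symbols with 10 entries the entry with the highest mean was used. Depth is unknown, and FPKM were not turned into counts.

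Genes with a mean of at least 1 FPKM (10469) were fitted on log2(FPKM + 1) with limma 3.58.1 (R 4.3.3), with group as the only term and a variance trend, two-sided, with Benjamini-Hochberg adjustment. Fold changes on this scale understate those of weakly expressed genes. "Fold" is the ratio of mean FPKM. Ratios between carriers were tested with exact permutation (scipy 1.17.1).

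Every member is counted, and 1, which was not called, is not reported here by name. Per-library values belong by rule to called members with an absolute log2 fold change of at least 0.3 and to the 3 with the highest mean, and of each of the 7 other lists up to 3 called genes are named. Further per-library values were added after the data were seen. Members, groups and lists were chosen with earlier results of these data known. Alternatives were pseudocounts of 0.1 and 0.5, no minimum, a minimum of 5, median-ratio scaling, quantile normalization, no trend, robust moderation, a block for the replicate number, summed entries, omission of each library, and a threshold of 0.01.

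In simulated data of 10469 genes, the fit for doxycycline against vehicle recovered 52.5% of 80 genes changed by 0.3 on the log2 scale, 68.8% of 80 changed by 0.5 and 90% of 40 changed by 1, with 4 false among 137 calls. Only 200 genes were changed in the simulation, whereas 3012 were called in the data. The adjusted p depends on that share, so these rates do not give the sensitivity of the fit reported here. Figures used matplotlib 3.10.9.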

Additional observations from a re-analysis of the deposited data

How the results depend on the processing

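Of the 9 calls among the carriers, 7 were kept at the threshold of 0.05 under every alternative fit that kept the gene, and the exceptions were SLC25A6 and SLC25A38. SLC25A6 turned to a log2 fold change of 0.02 with quantile normalization and also lost its call without the trend (adjusted p = 0.121). The threshold of 0.01 ended the calls of these 2 and of SLC25A32 and left 6 carriers called, 3 of them higher (SLC25A15, SLC25A36 and SLC25A51) and, over all genes, 1636 called, 875 higher and 761 lower. Leaving out 1 library gave 7 to 9 carriers called, 4 to 5 higher and 3 to 5 lower, and 2309 to 2376 of all genes called, 1186 to 1271 higher and 1066 to 1123 lower. The other alternatives gave between 7 and 11 called carriers, the 11 being reached without a minimum, which adds SLC25A35 and SLC25A47, the second of them a gene listed only through its vehicle libraries. Over 545 pairs of a tested carrier and an alternative, 521 kept side and direction or were called in neither, 14 lost a call, 9 gained one and 1 reversed. Why these calls moved was not tested.

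Libraries with the same number deviated together by r of 0.015, -0.032 and 0.092 across genes, so the numbers are not taken as pairs. With the replicate number as a block, 7 carriers were called, SLC25A6 (adjusted p = 0.0773) and SLC25A38 (0.0646) being lost, and 2343 of all genes. The unknown depth limits what can be said of SLC25A47 and SLC25A35, whose means over the 6 libraries are the lowest of the 37 members.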
